A study of Mus musculus with 32 samples.

Results

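Oxidative phosphorylation is built by 2 genomes, and the 51 genes described here are 13 protein-coding genes of the mitochondrial chromosome and 38 nuclear genes for subunits of complexes I to IV. The members were taken by symbol from 55401 genes measured in the whole series, and each symbol matched 1 identifier. The nuclear members comprised 21 subunits of complex I, 4 of complex II, 6 of complex III and 7 of complex IV.

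RNA sequencing had been performed on dorsal epidermis from 32 mice on the mixed SKH-1/SV129/BL6/J background, aged 10 to 14 weeks. The mice formed 8 groups of 4, defined by sex, by genotype and by treatment. Genotype was WT or KO, the latter being littermates that lack Ppard (PPARD-/-, the gene for the nuclear receptor PPARbeta), and treatment was Control, meaning sham handling, or UV, meaning 120 mJ/cm2 on the back 24 h before sampling. Each library came from 1 mouse, so the groups of 8 compared below hold 4 males and 4 females each.

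Complex I (NADH dehydrogenase), complex II (succinate dehydrogenase), complex III (cytochrome bc1) and complex IV (cytochrome c oxidase) pass electrons to oxygen along the inner mitochondrial membrane, and complex V (ATP synthase) uses the resulting proton gradient. Mitochondrial messengers are cut out of long transcripts that run around the small circular chromosome, whereas each nuclear subunit gene has its own promoter and its protein has to be imported. Complex II is the exception among the complexes, because all of its subunits are nuclear. In epidermis, basal keratinocytes divide and suprabasal keratinocytes differentiate, and the organ as a whole relies strongly on glycolysis.

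Of the 13 mitochondrial genes, 7 could be followed and 6 could not, and most of the latter have a near-identical copy among the nuclear chromosomes. mt-Co2, which encodes the second subunit of complex IV, lies on the plus strand at chrM:7013-7696 (GRCm38) and has a copy in the nuclear genome, the unprocessed pseudogene Gm28661 at chr1:24614885-24615565 on the minus strand. The first 100 bases of the gene (chrM:7013-7112) and of the copy (chr1:24615466-24615565) are printed because they are alike in every base, as were all 681 aligned bases. The next pair is shown as the contrast: mt-Cytb, the mitochondrial subunit of complex III, against its nearest annotated copy, the processed pseudogene Gm11410 on chromosome 4, over chrM:14146-14245 and chr4:80003990-80004089, both on the plus strand. Capitals mark the bases that differ within a pair, 0 in the first pair and 5 in the second, and over 1142 aligned bases mt-Cytb and Gm11410 differed at 81.
mt-Co2: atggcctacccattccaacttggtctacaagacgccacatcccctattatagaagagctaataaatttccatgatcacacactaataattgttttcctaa
Gm28661: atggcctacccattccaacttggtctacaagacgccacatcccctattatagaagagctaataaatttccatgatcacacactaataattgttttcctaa
mt-Cytb: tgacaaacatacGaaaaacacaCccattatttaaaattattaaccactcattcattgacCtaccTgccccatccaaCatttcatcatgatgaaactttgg
Gm11410: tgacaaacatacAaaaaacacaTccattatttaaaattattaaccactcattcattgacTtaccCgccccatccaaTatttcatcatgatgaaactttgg

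Sharing of this kind limits what a count can hold, because the reads were 100 bases long and reads that aligned to more than 1 place were not counted on any gene. The share of 100-base windows that also occurred in another annotated gene was 99.49% for mt-Co2, 99.85% for mt-Co3, 99.48% for mt-Atp6, 97.59% for mt-Nd3 and 98.48% for mt-Nd4l. The copies of these 5 genes lie side by side on chromosome 1, from the start of Gm10222, the copy of mt-Nd4l, at base 24612407 to the end of Gm28661 at base 24615565. They are flanked there by Gm28439 and Gm29216, copies of part of mt-Nd4 and of part of mt-Co1. In the counts, mt-Co2, mt-Atp6, mt-Atp8 and mt-Nd4l had 0 reads in all 32 mice, mt-Co3 had 1 read in 1 mouse, and mt-Nd3 had 7 reads over 6 mice. A count of 0 allows up to 0.131 cpm (counts scaled to library size) in the smallest library, a limit that covers counting error and not the loss of shared reads. mt-Atp8 has no annotated copy in the windows searched. It lies at chrM:7766-7969, after the end of mt-Co2, and overlaps the start of mt-Atp6 at base 7927. On chromosome 1 the copy of mt-Atp6, Gm10925, ends at base 24614651 and Gm28661 starts at base 24614885. The sequence between these copies was not read, and why mt-Atp8 had 0 reads was not tested.

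The genes that could be followed shared little or part of their sequence. mt-Nd1, mt-Nd5, mt-Nd6 and mt-Cytb shared 0% of their windows, mt-Nd2 shared 3.19%, mt-Co1 30.84% and mt-Nd4 60.75%, so that the levels of mt-Co1 and mt-Nd4 are lower bounds. In WT Control mice the median level per kb of transcript was 6053 cpm per kb for mt-Co1, 4361 for mt-Cytb, 3009 for mt-Nd1, 1267 for mt-Nd5, 1258 for mt-Nd2 and 1235 for mt-Nd4. mt-Nd6, the only member on the minus strand of the chromosome, stood far below at 14.2 cpm per kb. Its messenger is known to carry little poly(A) tail, and the libraries were made from poly(A) RNA, whose part in this level was not tested.

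**Figure D1:**
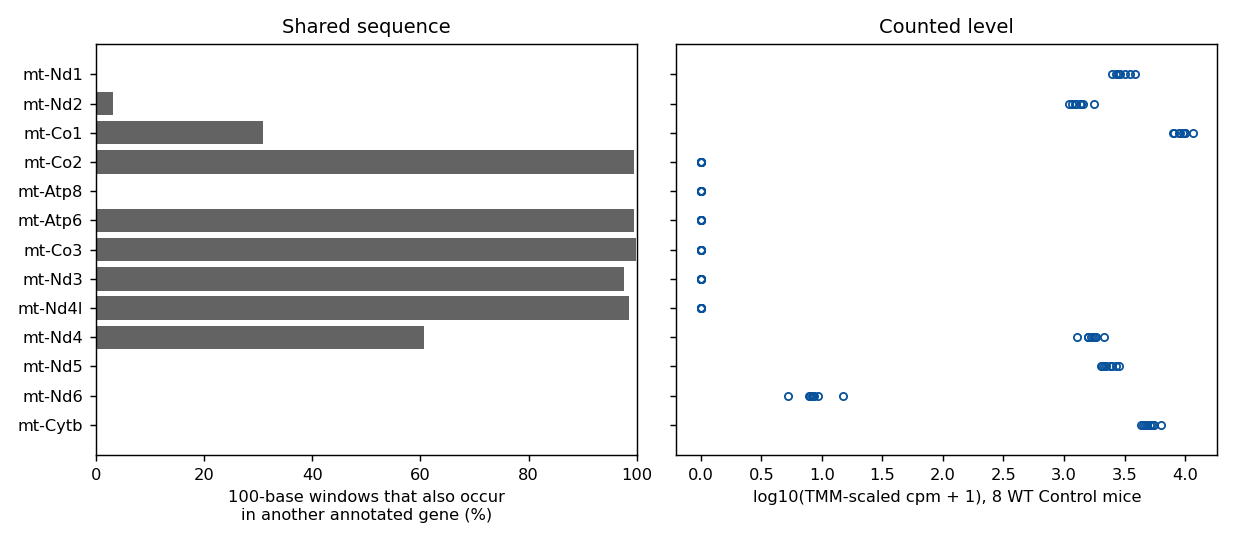
Left, the percentage of 100-base windows of each mitochondrial member that also occur in another annotated gene; right, log10 of TMM-scaled cpm plus 1 in the 8 WT Control mice, 1 circle a mouse, with genes in chromosome order. The 5 genes above 97% on the left, and mt-Atp8, sit at 0 on the right.

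Nuclear members were lower per kb than all counted mitochondrial members except mt-Nd6. The most abundant nuclear member of each complex, per kb in WT Control mice, was Ndufa4 at a median of 432 cpm per kb, Sdha at 39.3, Uqcrc1 at 104 and Cox4i1 at 221. Cox7c was the lowest at 6.62 cpm per kb, with 16.18% of its windows shared with other genes. Altogether the mitochondrial members took between 1.88 and 7.90% of the reads counted on genes in a mouse, and the nuclear members between 0.206 and 0.372%.

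Libraries held 22919428 to 40653581 reads on genes (median 27600228), and no pair of mice within a group agreed within sampling noise (chi-square per degree of freedom 19.5 to 134 over 48 pairs). The tissue label was met by its markers: all 7 basal and all 8 suprabasal keratinocyte markers exceeded 1 cpm in every mouse. Summed skeletal muscle markers ranged from 9.88 to 5574 cpm over the mice, with 9 mice above 1000 cpm, 2 each in WT Control, WT UV and KO Control and 3 in KO UV. Ppard, the targeted gene, kept 70.3 to 88.9 cpm in KO Control against 87.3 to 105 cpm in WT Control mice, and 175 to 239 cpm in KO UV against 252 to 326 cpm in WT UV mice, so gene-level counts do not check the deletion. Ppard was lower in KO than in WT after UV (log2 fold change -0.42 ± 0.07 SE, adjusted p = 0.00114, edgeR) and was not called without UV (-0.26 ± 0.07, adjusted p = 0.156).

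In KO UV, 3 mice stood apart in their mitochondrial reads. The mitochondrial members took 5.71% of gene reads in female 52F, 7.80% in female 74F and 7.90% in male 58M, against 2.62 to 3.50% in the other 5 KO UV mice. The range was 2.07 to 2.85% in WT Control, 2.19 to 3.37% in WT UV and 1.88 to 3.56% in KO Control mice. These 3 mice also had the highest shares of reads aligned more than once, 35.1, 37.4 and 38.8%, against at most 34.9% in the other 29 mice. Their nuclear members did not stand apart, at 0.303, 0.309 and 0.298% within a KO UV range of 0.263 to 0.372%. Results for the mitochondrial members are therefore given with and without them. As these 3 mice had the highest shares of mitochondrial reads, leaving them out must lower the KO UV estimates. The drop is a description and no test of the rise. Reads shared by mitochondrial genes and their copies fall into the share aligned more than once, so the 2 shares are not separate signs. Muscle markers summed to 3004 cpm in 52F and 2030 cpm in 58M but to 84.1 cpm in 74F, and the mouse with most muscle signal, KO Control 60F at 5574 cpm, had 3.56% mitochondrial reads. The part of muscle in these values was not tested.

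**Figure D2:**
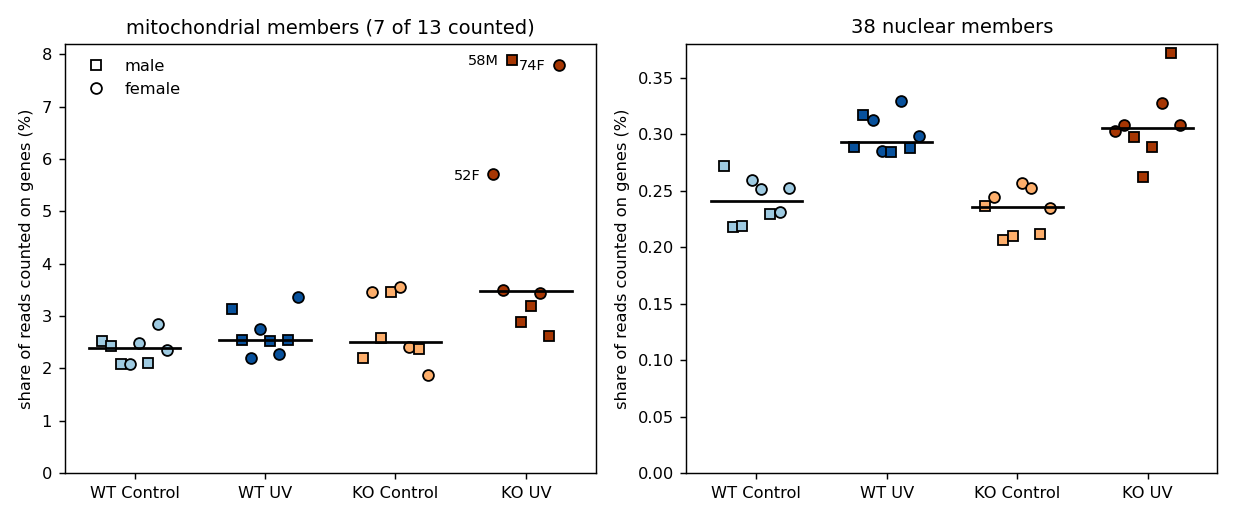
Share of gene reads (%) on the mitochondrial members (left) and on the 38 nuclear members (right) in each mouse, squares for males, circles for females, with the group median as a line. Mice 52F, 58M and 74F lie above 5% on the left and inside their group on the right, where all WT UV mice lie above all WT Control mice.

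The first comparison asked what UV did to the members in WT epidermis, 8 UV against 8 Control mice. Nuclear subunits rose: 26 of 38 were higher after UV, 1 was lower and 11 did not pass the test, with a median log2 fold change of 0.32. The share called higher was 68.4%, where 34.5% of all 15546 genes tested were called higher and 36.5% lower, and where the median log2 fold change of all genes was -0.01. A member counted as called when its adjusted p, from edgeR's quasi-likelihood test over all genes tested, was under 0.05. For 15 nuclear members (39.5%) the UV and Control mice did not overlap at all, and this was so for 43.4% of all genes, so the lack of overlap does not set the members apart. Folds of the rising members ran from 1.12 to 1.90.

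The changes ran beside a change in the cell markers. Summed basal keratinocyte markers rose from 7505 to 16670 cpm in WT Control to 17360 to 29950 cpm in WT UV mice, and suprabasal markers went from 70390 to 81510 cpm down to 15990 to 29700 cpm. Of 8 neutrophil and monocyte markers, 7 exceeded 1 cpm in at least 1 mouse, and their sum moved from 43.9 to 174 cpm in Control to 687 to 1583 cpm in UV mice. In KO mice, too, Control and UV mice did not overlap in the sum of any of these 3 lists. Other lists were lower after UV: summed T cell markers went from 107.5 to 203 cpm down to 18.5 to 54.6 cpm in WT mice and from 94.8 to 172 cpm down to 29.97 to 78.2 cpm in KO mice, without overlap in either. Langerhans cell markers went from 692 to 1140 cpm down to 390 to 508 cpm and dermal fibroblast markers from 13.3 to 72.9 cpm down to 1.76 to 9.05 cpm in WT mice, and both lists overlapped in KO mice. Skeletal muscle markers had medians of 725 cpm in WT Control and 33.2 cpm in WT UV mice, with overlapping ranges. The part of these cell types in the changes of the members was not tested, and in bulk epidermis a change in cell numbers and a change in RNA per cell cannot be told apart.

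Within complex I, 13 of 21 nuclear members rose in WT mice and 1 fell, beside 34.5% of all genes called higher and 36.5% lower. Ndufa5, an accessory subunit of the peripheral arm (chr6:24518666-24528013, minus strand), had the largest rise. Its lowest, median and highest values were 14.95, 16.7 and 19.4 cpm in WT Control mice and 27.6, 33.2 and 34.7 cpm in WT UV mice. Every UV mouse lay above every Control mouse, and the log2 fold change was 0.93 ± 0.08 (SE, adjusted p = 1.75e-11).

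Ndufb6, a subunit of the membrane arm (chr4:40270591-40279421, minus strand), followed. Its lowest, median and highest values were 17.9, 21.7 and 23.1 cpm in WT Control mice and 35.05, 37.9 and 41.2 cpm in WT UV mice. The groups did not overlap, with a log2 fold change of 0.83 ± 0.06 (adjusted p = 3.8e-12), and 23.98% of the windows of Ndufb6 also occur on the opposite strand in Smim27. Ndufb9, another membrane arm subunit (chr15:58933756-58939488, plus strand), went from 32.7, 34.2 and 40.9 cpm to 50.7, 55.8 and 66.6 cpm, again without overlap (log2 fold change 0.69 ± 0.08, adjusted p = 5.24e-09), and 11.06% of its windows also occur in Gm49356.

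Ndufa1, a small membrane subunit and an X-linked gene (chrX:37187588-37191163, minus strand), was the only nuclear member that fell in WT mice. Lowest, median and highest values were 22.0, 26.5 and 30.7 cpm in Control and 17.5, 20.3 and 24.3 cpm in UV mice. The groups overlapped at their edges, and the log2 fold change was -0.36 ± 0.10 (adjusted p = 0.00167). In KO mice it was -0.10 ± 0.10 (adjusted p = 0.362), and the difference between the genotypes was not called (0.26 ± 0.14 in log2, adjusted p = 0.298). Without 52F, 58M and 74F it was called lower in KO mice too, at -0.24 ± 0.10 (adjusted p = 0.0452).

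Other complex I members with clear rises in WT mice were Ndufa8 at a log2 fold change of 0.58, Ndufv1, which carries the NADH-binding site, at 0.57, Ndufa9 at 0.54 and Ndufa4 at 0.47. Ndufa4, assigned to complex I in older nomenclature and found with complex IV in later work, was the most abundant nuclear member, with 253, 264 and 303 cpm in WT Control and 347, 367 and 423 cpm in WT UV mice (adjusted p = 2.17e-05). Those ranges did not overlap. The core subunits were mixed, with Ndufs1 at 0.26, Ndufs3 at 0.33, Ndufs8 at 0.19 and Ndufv2 at 0.34 all called higher, and Ndufs7 at 0.02 not called. Ndufa2 at 0.28 and Ndufa10 at 0.16 were also called. Ndufa6, Ndufb3, Ndufb5, Ndufb8, Ndufb10 and Ndufs4 did not pass the test, with log2 fold changes from -0.14 to 0.18.

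All 6 nuclear members of complex III rose in both genotypes, beside 34.5% of all genes called higher in WT and 37.3% in KO mice. Uqcrfs1, the Rieske iron-sulfur protein, had 63.1, 67.7 and 82.4 cpm in WT Control mice and 99.3, 105 and 117 cpm in WT UV mice, without overlap, at a log2 fold change of 0.62 ± 0.06 (adjusted p = 1.56e-09). Uqcrq rose by 0.60, Cyc1 (cytochrome c1) by 0.60, the core protein Uqcrc2 by 0.54 and Uqcrb by 0.36 on the log2 scale. For Uqcrc2, 15.52% of the windows also occur on the opposite strand in Pdzd9. Uqcrc1, the other core protein and the most abundant of the complex per kb, went from 141, 171 and 207 cpm to 193, 226 and 251 cpm, with overlapping ranges and a log2 fold change of 0.39 ± 0.07 (adjusted p = 1.85e-05). In KO mice the 6 changes ran from 0.28 for Uqcrb to 0.80 for Uqcrq.

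In complex II, 3 of 4 members rose in WT mice and all 4 in KO mice, beside 34.5% and 37.3% of all genes. Sdha, the flavoprotein that oxidises succinate, had 100.2, 114 and 119 cpm in WT Control mice and 132, 141 and 152 cpm in WT UV mice, with no overlap and a log2 fold change of 0.32 ± 0.05 (adjusted p = 1.06e-06). Sdhb, the iron-sulfur subunit, rose by 0.25 in log2. Sdhd, a membrane anchor (chr9:50596357-50603812, minus strand), rose by 0.58 ± 0.13 in WT mice (adjusted p = 0.000216). In KO mice it rose by 1.04 ± 0.13 (adjusted p = 4.12e-08), the largest change of a nuclear member there. The KO mice were the wider ones, with 18.7, 33.1 and 42.2 cpm in Control and 37.4, 70.6 and 86.7 cpm in UV mice, so that the groups overlapped. The other anchor, Sdhc, was at 0.04 in WT mice, not called, and rose by 0.25 in KO mice.

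In complex IV, 4 of 7 members rose in WT and 6 of 7 in KO mice, beside 34.5% and 37.3% of all genes. With so few members, the WT count is not far from the share of all genes. Cox4i1, the most abundant nuclear member of the complex per kb, had 156, 169 and 206 cpm in WT Control mice and 203, 215 and 238 cpm in WT UV mice, which overlapped narrowly (log2 fold change 0.35 ± 0.08, adjusted p = 0.000433). In KO mice it went from 158, 169 and 179 cpm to 204, 254 and 351 cpm without overlap (0.63 ± 0.08, adjusted p = 1.17e-07). Cox6a1 rose by 0.38 and 0.51 in WT and KO mice, Cox5b by 0.33 and 0.64 and Cox5a by 0.20 and 0.32. Cox6c and Cox7b were called in KO mice alone, at 0.37 and 0.21, and Cox7c was not called in either genotype.

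**Figure D3:**
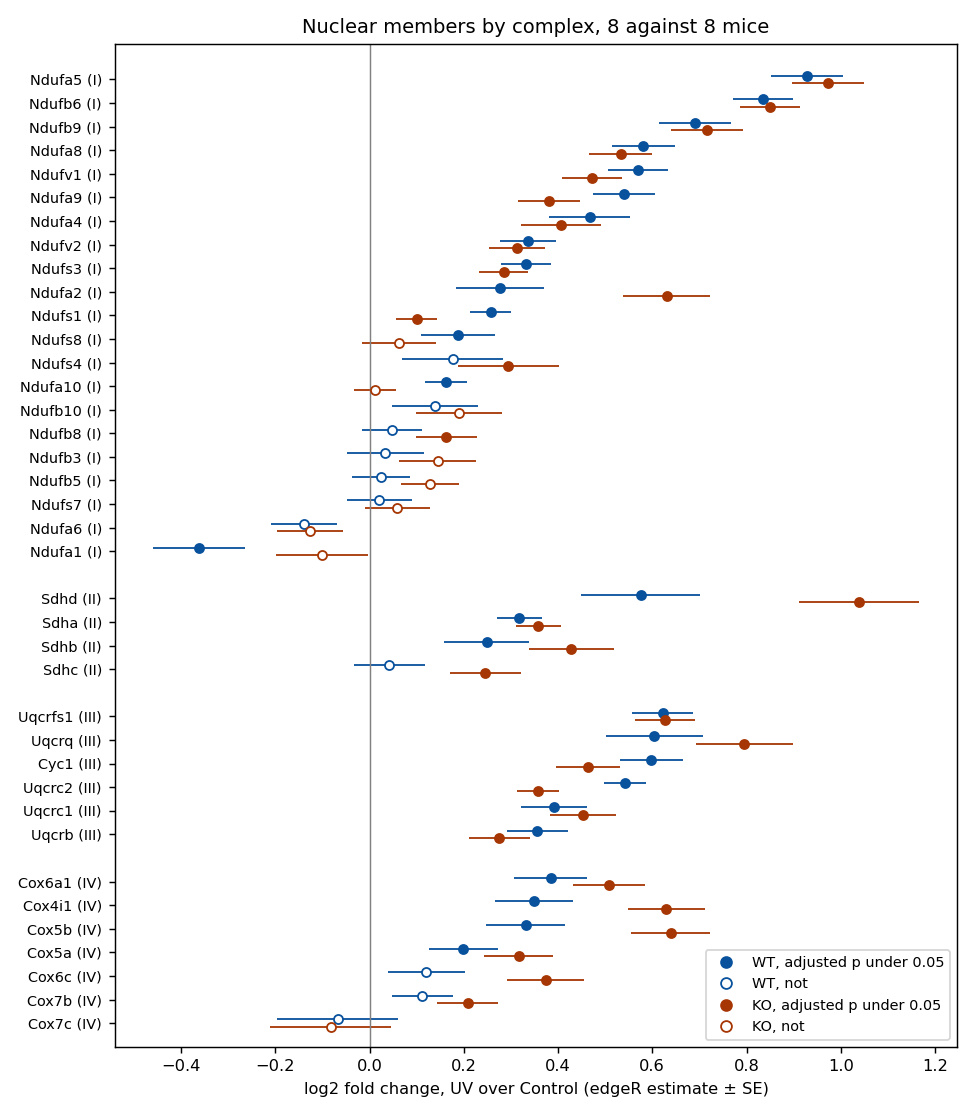
Log2 fold change of UV over Control (edgeR estimate ± SE) for the 38 nuclear members, ordered by complex, in WT (blue) and KO mice (brown), 8 against 8 mice each. Filled points have an adjusted p under 0.05; complex III lies wholly to the right of 0, and Ndufa1 in WT mice is the only filled point to its left.

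In KO mice the same comparison called 29 of 38 nuclear members higher (76.3%) and 0 lower, with a median log2 fold change of 0.36. Over all genes, 37.3% were called higher and 33.5% lower in KO mice, with a median log2 fold change of 0.09. No nuclear member had a negative change at an unadjusted p under 0.05, and DESeq2 and limma-trend also called 0 lower. The UV and Control mice did not overlap for 15 nuclear members (39.5%), where 35.1% of all genes did not overlap. Besides Sdhd, the largest rises were Ndufa5 at 0.97 ± 0.08 (adjusted p = 7.49e-12) and Ndufb6 at 0.85 ± 0.06 (adjusted p = 3.04e-12).

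Between the genotypes, 24 nuclear members were called higher in both, 2 in WT mice alone (Ndufa10 and Ndufs8), 5 in KO mice alone (Ndufb8, Ndufs4, Sdhc, Cox6c and Cox7b) and 7 in neither. For 11 members, among them Ndufa5, Ndufb6, Ndufb9, Sdha, Cyc1 and Cox6a1, the UV and Control mice were apart in both genotypes, which is 28.9% of the nuclear members beside 30.4% of all genes. Leaving out 52F, 58M and 74F left 28 nuclear members higher and 1 lower in KO mice, where 5564 of 15469 genes were higher and 4883 lower.

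The promoters of the nuclear members were read for 3 short motifs. RefSeq promoter sequences (GRCm38.p6, 250 bases before to 50 after the start) were at hand for 28 of the 38 nuclear members, as 29 windows. GCGCATGC, the core of sites bound by nuclear respiratory factor NRF1, was found on either strand in 5 windows (17.2%), those of Ndufa6, Ndufa8, Sdhb, Uqcrc1 and Cox6a1, and in 2.71% of all 32817 promoters or 4.63% of 14335 promoters of genes tested. AAGATGGC, found in YY1 sites, was in 13.8% of the member windows (Ndufa9, Ndufb8, Ndufs4 and Ndufs7) against 2.74% of all promoters and 3.97% of those of genes tested. CCGGAAGT, found in sites of ETS factors such as GABPA, was in 3.4% (Ndufs3) against 3.89% of all promoters and 7.18% of those of genes tested. Among the 5 genes with GCGCATGC, Ndufa6 was not called after UV in either genotype while the other 4 rose in both. Of all 38 nuclear members, 24 rose in both. Of those with AAGATGGC, Ndufa9 rose in both genotypes, Ndufb8 and Ndufs4 in KO mice alone and Ndufs7 in neither. Sdhd, Ndufa5 and Ndufb6, the largest rises in KO mice, had none of the 3 motifs. Whether a motif goes with a rise was not tested.

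Ndufa8, Uqcrc1 and Cox6a1 are printed as promoters with the NRF1 core whose genes rose in both genotypes, and Ndufa1 as that of the gene that fell in WT mice. Capitals mark the motif; in Uqcrc1 and Cox6a1 it is read on both strands in overlapping positions. The windows are chr2:36049289-36049588 (minus strand), chr9:108936398-108936697 (plus), chr5:115348909-115349208 (minus) and chrX:37191189-37191488 (minus). They are set on RefSeq starts, which can differ from the gene spans given here. The Ndufa1 window lies wholly upstream of its span, chrX:37187588-37191163, so a motif nearer to that start would be missed.
Ndufa8: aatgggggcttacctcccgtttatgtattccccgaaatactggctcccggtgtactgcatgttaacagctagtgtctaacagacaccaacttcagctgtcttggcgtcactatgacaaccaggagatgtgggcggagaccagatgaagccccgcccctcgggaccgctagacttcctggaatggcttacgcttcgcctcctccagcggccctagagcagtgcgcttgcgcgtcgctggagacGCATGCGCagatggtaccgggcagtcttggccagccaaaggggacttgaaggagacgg
Uqcrc1: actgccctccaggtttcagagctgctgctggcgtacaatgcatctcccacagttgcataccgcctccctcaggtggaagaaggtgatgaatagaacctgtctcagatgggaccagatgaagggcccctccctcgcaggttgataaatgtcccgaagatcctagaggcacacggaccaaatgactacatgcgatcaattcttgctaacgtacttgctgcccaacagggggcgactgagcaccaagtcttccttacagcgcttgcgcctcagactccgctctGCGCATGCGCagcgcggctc
Cox6a1: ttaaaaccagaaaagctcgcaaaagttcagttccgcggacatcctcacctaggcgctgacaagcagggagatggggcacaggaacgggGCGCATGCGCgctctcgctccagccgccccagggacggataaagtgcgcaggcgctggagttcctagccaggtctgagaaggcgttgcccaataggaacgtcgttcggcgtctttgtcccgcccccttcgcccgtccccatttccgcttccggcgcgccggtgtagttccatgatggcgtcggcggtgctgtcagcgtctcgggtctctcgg
Ndufa1: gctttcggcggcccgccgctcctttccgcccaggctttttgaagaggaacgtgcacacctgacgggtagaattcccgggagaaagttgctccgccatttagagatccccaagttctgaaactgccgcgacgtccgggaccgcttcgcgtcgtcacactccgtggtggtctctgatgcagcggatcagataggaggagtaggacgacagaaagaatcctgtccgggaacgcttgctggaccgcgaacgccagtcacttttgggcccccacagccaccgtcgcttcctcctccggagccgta

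For the mitochondrial members the estimates in WT mice ran from -0.05 to 0.62 in log2. Their SEs were 0.21 to 0.24, against 0.04 to 0.13 for the nuclear members. Counts of calls in the 2 sets therefore do not compare like with like. Of the 7 tested, 1 rose (14.3%), mt-Nd1, beside 34.5% of all genes, and the median log2 fold change was 0.24. mt-Nd1 encodes a complex I core subunit and is the first protein gene after the ribosomal RNA genes (chrM:2751-3707). It had 2508, 2879 and 3861 cpm in the lowest, median and highest WT Control mouse and 3637, 4684 and 5694 cpm in WT UV mice. The ranges overlapped slightly, and the log2 fold change was 0.62 ± 0.21 (adjusted p = 0.0103). mt-Nd2 (complex I, 1109, 1306 and 1774 cpm against 1438, 1686 and 2209.9 cpm) was at 0.40 ± 0.23 (adjusted p = 0.123) and mt-Co1 (complex IV, 7958, 9352 and 11597 cpm against 8849, 10745 and 13685 cpm) at 0.24 ± 0.22 (adjusted p = 0.329).

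The other 4 had overlapping groups. mt-Nd4 had 1271, 1701 and 2131 cpm in WT Control and 1395, 1672 and 2223 cpm in WT UV mice, a log2 fold change of 0.06 ± 0.22. mt-Nd5 had 2029, 2311 and 2835 cpm against 1954, 2443 and 3078 cpm, at 0.09 ± 0.21. mt-Cytb had 4308, 4989 and 6267 cpm against 4013, 4747 and 6161 cpm, at -0.05 ± 0.21. mt-Nd6 had 4.27, 7.37 and 14.0 cpm against 7.49, 8.998 and 13.8 cpm, at 0.34 ± 0.24, and none of these 4 passed the test.

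In KO mice 7 of 7 were called higher after UV, by 0.55 to 1.13 in log2, where 37.3% of all genes were called higher. Fewer were called without the mice that stood apart, which were the highest in these genes. mt-Nd1 had 2628, 3498 and 5615 cpm in KO Control and 4939.6, 5546 and 14653 cpm in KO UV mice (1.13 ± 0.21, adjusted p = 3.39e-05), with overlap because 1 KO Control mouse, 52M, exceeded the median of the UV mice. The same 3 values were 4206, 5746 and 8814 cpm against 5359, 6471 and 16343 cpm for mt-Cytb (0.57 ± 0.21, adjusted p = 0.0184). They were 7520.1, 11004 and 16216 cpm against 10283, 13409 and 36062 cpm for mt-Co1 (0.76 ± 0.22, adjusted p = 0.00309). Among the complex I members, mt-Nd2 went from 1171, 1406 and 2379 cpm to 1687, 2238 and 5994 cpm, mt-Nd4 from 1328, 2043 and 3061 cpm to 1681, 2128 and 5942 cpm and mt-Nd5 from 1959, 2847 and 4027 cpm to 2218, 3147 and 8184 cpm. mt-Nd6 went from 8.07, 10.1 and 18.7 cpm to 9.80, 15.5 and 32.6 cpm (0.75 ± 0.24, adjusted p = 0.00639). For all 7 the KO Control and KO UV mice overlapped.

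Without 52F, 58M and 74F, 1 of 7 rose in KO mice, again mt-Nd1 (0.55 ± 0.15, adjusted p = 0.00241), and mt-Nd4 and mt-Cytb turned to -0.07 and -0.02. In that fit 2 of 7 rose in WT mice, mt-Nd1 and mt-Nd2. Of 15469 genes it called 5564 higher in KO and 5453 higher in WT mice. Leaving out 58M alone or 74F alone gave 4 of 7 in KO mice. Without the 9 mice above 1000 cpm of muscle markers, 2 of 7 rose in WT mice and 7 of 7 in KO mice. Of 14767 genes, 5054 were higher there in WT and 5027 in KO mice.

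The estimates were larger for the genes nearest to mt-Nd1 than for those further along the plus strand. From mt-Nd1 over mt-Nd2, mt-Co1, mt-Nd4 and mt-Nd5 to mt-Cytb, which starts 11.394 kb downstream of mt-Nd1, the log2 fold changes in WT mice were 0.62, 0.40, 0.24, 0.06, 0.09 and -0.05. In KO mice they were 1.13, 0.95, 0.76, 0.55, 0.64 and 0.57, and without the 3 mice 0.55, 0.32, 0.14, -0.07, 0.03 and -0.02. In each of the 3 series mt-Nd1 was highest, followed by mt-Nd2 and mt-Co1. This order was noticed after the values were seen, and no test was made of it.

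**Figure D4:**
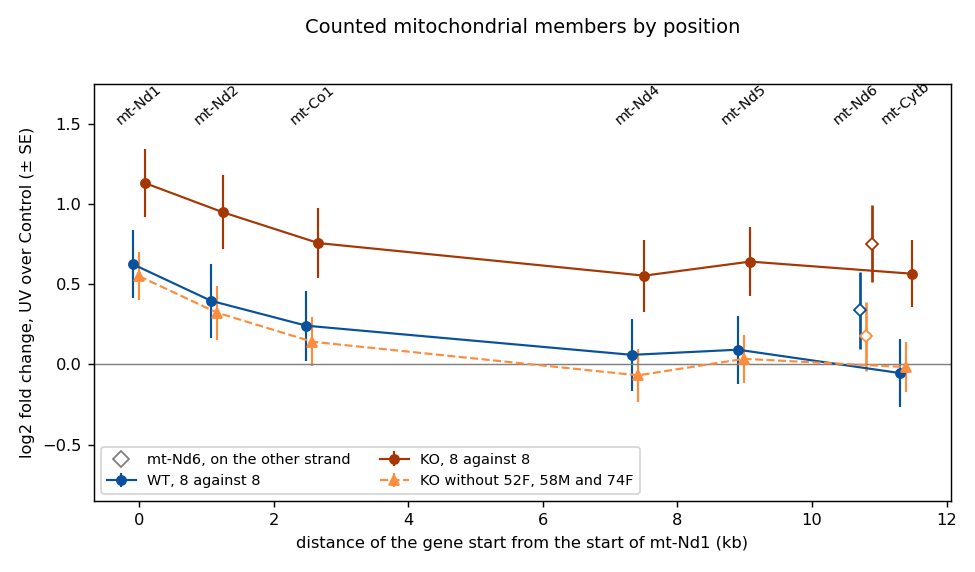
Log2 fold change of UV over Control (± SE) for the 7 counted mitochondrial members against the distance of each gene's start from the start of mt-Nd1 (kb), in WT mice (blue), KO mice (brown) and KO mice without 52F, 58M and 74F (orange, dashed). Lines join genes of the plus strand and diamonds mark mt-Nd6; all 3 lines are highest at mt-Nd1, at 0.62, 1.13 and 0.55.

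The ratio of mt-Nd1 to mt-Cytb reads in a mouse needs no scaling between libraries, and it separated UV from Control mice in both genotypes. It was picked after the values were seen. How many ratios of other gene pairs separate the mice was not counted, and 30.4% of single genes did so in both genotypes. It was 0.538, 0.599 and 0.655 in the lowest, median and highest WT Control mouse and 0.903, 0.944 and 1.08 in WT UV mice. In KO mice it was 0.527, 0.605 and 0.637 in Control and 0.773, 0.882 and 0.929 in UV mice. The 3 mice with most mitochondrial reads were inside the KO UV range in this ratio, at 0.773 for 52F, 0.844 for 74F and 0.929 for 58M, and all 3 were high in both genes. Means were 0.600 ± 0.039 and 0.965 ± 0.067 (SD, n = 8) in WT Control and UV, and 0.589 ± 0.042 and 0.867 ± 0.057 in KO Control and UV mice.

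The other plus-strand genes were set against mt-Cytb in the same way. Against mt-Cytb, mt-Nd2 went from 0.246 to 0.283 up to 0.336 to 0.404 in WT mice and from 0.228 to 0.293 up to 0.315 to 0.380 in KO mice, also without overlap. mt-Co1 went from 1.746 to 2.06 up to 2.16 to 2.55 in WT mice, and overlapped by a narrow margin in KO mice at 1.76 to 1.92 against 1.91 to 2.29. mt-Nd4 and mt-Nd5 overlapped broadly in both genotypes, at 0.295 to 0.373 against 0.331 to 0.394 for mt-Nd4 in WT mice. The ratio was chosen for this pattern and is a description. Per the labels, RNA quality numbers ran from 6.4 to 8.4 over the series. The methods of the study state a higher range, and the sources used here do not settle which holds. The numbers of single mice were not used here, and the part of RNA quality in this ratio was not tested.

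**Figure D5:**
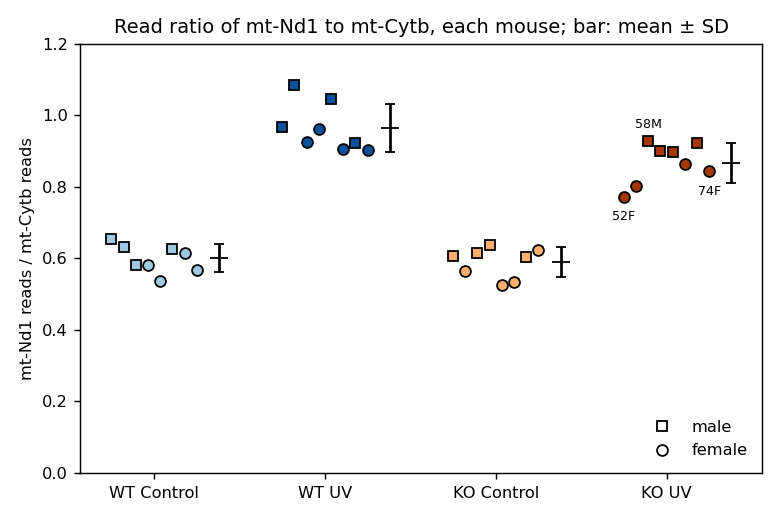
Ratio of mt-Nd1 to mt-Cytb reads in each mouse (squares males, circles females) by genotype and treatment, with mean ± SD beside each group of 8. All UV mice lie above 0.77 and all Control mice below 0.66, and 52F, 58M and 74F lie among the other KO UV mice.

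Set against the nuclear members, the mitochondrial members overlapped between Control and UV mice. The mean log2 cpm of the 7 mitochondrial members minus that of the 38 nuclear members was 4.50, 4.74 and 5.18 in the lowest, median and highest WT Control mouse and 4.33, 4.71 and 5.06 in WT UV mice. In KO mice it was 4.55, 5.11 and 5.68 in Control and 4.48, 5.01 and 6.29 in UV mice. The nuclear mean alone went from 5.44 to 5.70 in WT Control up to 5.78 to 5.94 in WT UV mice, and from 5.41 to 5.67 up to 5.76 to 6.18 in KO mice, without overlap in either. Means of other gene sets were not compared, and 30.4% of single genes were apart in both genotypes. The mitochondrial mean overlapped in both genotypes.

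The comparison of genotypes asked whether loss of Ppard altered the members. Without UV, 0 of 45 tested members were called between KO and WT mice by edgeR, by DESeq2 or by limma-trend. Over all genes edgeR called 0.206%, DESeq2 0.506% and limma-trend 0.206%. In edgeR 1 member had an unadjusted p under 0.05, Ndufb10 at -0.29 ± 0.09 in log2 (adjusted p = 0.306). After UV Ndufb10 was at -0.24 ± 0.09 (adjusted p = 0.137, edgeR). Ndufb10 lies at chr17:24722060-24724478 (minus strand), on the chromosome that also carries Ppard, and the part of this position was not tested. The 7 mitochondrial members were at 0.26 to 0.49 in log2, with adjusted p from 0.584 upwards.

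After UV, 8 of 45 members (17.8%) were called higher in KO than in WT mice, where 2.69% of all genes were. They were the 7 mitochondrial members, at 0.76 to 0.91 in log2 and adjusted p from 0.0208 for mt-Cytb to 0.046 for mt-Nd4, and the nuclear member Ndufa2. No member had KO UV mice wholly above or below WT UV mice, which was so for 0.187% of all genes. Without 52F, 58M and 74F, 0 of 7 were called, at 0.18 to 0.33 in log2. Leaving out the mice with most mitochondrial reads had to lower these estimates. All genes called in either direction made up 4.84% in that fit and 3.31% with the 3 mice. Leaving out 1 mouse at a time gave 0 of 7 without WT UV 51F or KO UV 58M. It gave 1 without KO UV 74F or WT UV 57F, 59F, 38M, 57M or 71M, and 3 without WT UV 32M. Limma-trend, the approach the study used, called 1 of 7 (1.67% of all genes in either direction). Without the 9 mice rich in muscle markers 0 of 7 were called, at 0.48 to 0.74, and 0.176% of all genes were called in either direction.

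Ndufa2, an accessory subunit of complex I, had 22.2, 25.6 and 31.3 cpm in WT UV mice and 27.7, 31.3 and 40.8 cpm in KO UV mice. The ranges overlapped (log2 fold change 0.35 ± 0.09, adjusted p = 0.0376). Without the 3 mice it was at 0.26 (adjusted p = 0.158), and limma-trend gave 0.34 (adjusted p = 0.0545), neither of which passed. With 1 mouse left out at a time the estimate ran from 0.26 to 0.39 and the adjusted p from 0.0219 to 0.123, and the call was lost in 10 of 16 fits, those without WT UV 32M, 51F, 57F, 57M or 71M or KO UV 54F, 58M, 66F, 72M or 74F. Its rise after UV was 0.28 in WT and 0.63 in KO mice, both called.

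The difference of the UV responses between genotypes was not called for any of the 45 members (edgeR, smallest adjusted p = 0.119, 9 at an unadjusted p under 0.05), where 0.765% of all genes were called. DESeq2 called 2 of 45, where it called 5.33% of all genes, and limma-trend called 0, where it called 0.618%. The largest estimate was 0.62 ± 0.30 for mt-Cytb among the mitochondrial and 0.46 ± 0.18 for Sdhd among the nuclear members. Without 52F, 58M and 74F, which had to lower them, the mitochondrial estimates ran from -0.18 to 0.02, with mt-Cytb at 0.02 ± 0.20. No member was called in that fit, where 3.25% of all genes were. A response called in KO mice alone is thus not shown to differ from that in WT mice.

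The sexes were compared because the study set male against female responses. The response to UV differed between the sexes for 0 of 45 members and for 0% of all genes by edgeR, with 2 members at an unadjusted p under 0.05. Both comparisons of the sexes averaged WT and KO mice. The paper counted genes called in 1 sex and not in the other, a different measure, so the 0% does not bear on its counts. DESeq2 and limma-trend also called 0 members, and 0.143 and 0.0129% of all genes. Without UV, 3 of 45 members (6.67%) differed between female and male mice, beside 6.86% of all genes: Cox5b at 0.41 ± 0.08 (adjusted p = 0.00507, edgeR) and Uqcrq at 0.39 ± 0.10 (adjusted p = 0.0239) were higher in females, and Ndufs1 at -0.15 ± 0.04 (adjusted p = 0.0351) was lower. Skeletal muscle markers differed with sex in these mice, at 12.95, 1371 and 5574 cpm in the lowest, median and highest female and 18.8, 131 and 721 cpm in the males, and 4 of 8 females but 0 of 8 males exceeded 1000 cpm. Without the 9 muscle-rich mice 1 member was called, beside 1.53% of all genes: Cox5b at 0.54 ± 0.11 (adjusted p = 0.0188), with Uqcrq at 0.51 ± 0.13 (adjusted p = 0.0513) and Ndufs1 at -0.13 ± 0.06 (adjusted p = 0.238). With 1 mouse left out at a time Cox5b was called in each of 16 fits. Uqcrq was lost in 5 of them (without 54M, 60F, 61F, 67M or 73F) and Ndufs1 in 10 (also without 34M, 44F, 52M, 56M or 63F). The part of muscle in these differences was not tested.

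Within each sex the nuclear rise was seen in the same fit, with 23 of 38 called higher in WT males (29.8% of all genes), 21 in WT females (30.1%), 26 in KO males (30.9%) and 23 in KO females (34%).

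The other genes of the pathway give the surroundings of the members. All counts of these lists stand beside 34.5% of all genes called higher and 36.5% lower in WT mice. In KO mice the shares of all genes were 37.3% and 33.5%. Of 17 further complex I subunits, 11 rose and 2 fell in WT mice and 12 rose and 1 fell in KO mice. Ndufs5, at 0.354 ± 0.0938 cpm in WT Control and 3.17 ± 0.976 cpm in WT UV mice (SD, n = 8), had the largest change of these at 3.16 ± 0.38, from a very low level. Its WT Control mean lay below the 1 cpm that a gene had to reach in any mouse to be tested. The size of this change is thus a description, and reads of Ndufs5 lost to copies were not looked for. Ndufv3 fell by 0.81 and fell by 0.59 on the log2 scale in WT and KO mice. Of 7 further subunits of complexes III and IV, 3 rose and 1 fell in WT and 6 rose and 1 fell in KO mice. Cox6b1 rose by 0.59 and 0.58, and Cox7a2l, which joins complexes into supercomplexes, changed by -0.92 and -0.69 in WT and KO mice.

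Complex V went the way of the nuclear members, with 12 of 17 subunits higher and 2 lower in each genotype. Atp5b, the catalytic beta subunit, was at 630.2 ± 45.4 cpm in WT Control and 1003 ± 51.1 cpm in WT UV mice (0.67 ± 0.05, adjusted p = 1.18e-12) and rose by 0.68 in KO mice. Atp5g1, a gene for the membrane subunit c that stood at 2.36 ± 0.427 cpm in WT Control mice, changed by -0.74 and -0.58. Of the mitochondrial ribosomal proteins, 58 of 77 were higher and 6 lower in WT mice and 59 and 5 in KO mice, beside the 34.5% and 37.3% of all genes called higher. Mrps22 rose by 1.18 and 0.91 and Mrps25 by 1.04 and 1.14 in WT and KO mice.

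Among 28 genes of mitochondrial transcription and RNA handling, 15 rose and 5 fell in WT mice and 13 and 5 in KO mice. Polg2, the accessory subunit of the mitochondrial DNA polymerase, rose by 1.82 ± 0.26 and 2.10 ± 0.26, and Fastkd1, an RNA-binding protein of mitochondria, changed by -1.79 and -1.42. Of 43 assembly factors, 22 rose and 9 fell in WT and 23 and 7 in KO mice. Nubpl, which delivers iron-sulfur clusters to complex I, fell from 2.38 ± 0.590 to 0.332 ± 0.0894 cpm in WT mice (log2 fold change -2.81 ± 0.27), and Sco2, a copper chaperone of complex IV, rose by 1.04.

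Of 20 genes of mitochondrial quality control and dynamics, 13 rose and 4 fell in WT and 11 and 5 in KO mice. Pink1, a kinase that marks damaged mitochondria for removal, fell from 60.8 ± 8.996 to 14.2 ± 3.68 cpm in WT mice (log2 fold change -2.09 ± 0.18, adjusted p = 4.11e-11) and changed by -1.74 in KO mice. Of 12 nuclear regulators, 4 rose and 2 fell in WT and 4 and 3 in KO mice. The share that rose, 33.3% in each genotype, was near that of all genes, 34.5% and 37.3%. Among the regulators called were Gabpb1 at 0.61 and 0.47 and Crebl2 at -0.91 and -0.98. Of 5 tissue isoforms tested, 1 rose (20%) and 1 fell in each genotype, a share below that of all genes. Ndufa4l2, a paralogue of Ndufa4, fell from 175 ± 65.3 to 12.6 ± 4.97 cpm in WT mice (log2 fold change -3.80 ± 0.31, adjusted p = 1.04e-11). Cox6b2 rose by 0.98 in log2 from 0.357 ± 0.218 to 0.707 ± 0.228 cpm, with both means below the 1 cpm of the filter.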

How the data were processed

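Poly(A) RNA of dorsal epidermis was sequenced as stranded single reads of 100 bases, 1 library a mouse. The authors deposited counts of reads per gene, raw and not pooled; their reads had been trimmed (cutadapt 1.8), aligned (STAR 2.5.3a) and counted (HTSeq 0.9.1), with GRCm38 as the build in the submitters' processing notes. Reads aligned more than once or to no gene (summary lines of each file) stayed out of library sizes and tests.

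From these counts, 15546 of 55401 genes passed a filter of 1 cpm in any mouse and were scaled by TMM and fitted with the quasi-likelihood test of edgeR 4.0.16 (R 4.3.3), with 1 mean for each of the 8 groups. Contrasts averaged the sexes, and those between the sexes averaged the genotypes. The p-values were adjusted by Benjamini-Hochberg over all genes tested, two-sided, with a threshold of 0.05. Counting limits cover counting error only. DESeq2 1.42.0, limma-trend (limma 3.58.1), other scalings and filters, each sex alone and each mouse left out were the alternatives. The code was tested on simulated data.

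Shared windows came from GENCODE transcripts and promoters from RefSeq. The members and the gene lists were chosen with earlier results of these data known. Named in full were the mitochondrial members, the 3 largest rises and falls among nuclear members called in each genotype, those called between genotypes and the most abundant of each complex; of each other list, the 2 largest changes called in WT mice; and Ppard. A gene that this rule names is not reported here. The Nd1 to Cytb ratio and other genes were added after values were seen.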

Additional observations from a re-analysis of the deposited data

Results flagged for a closer look

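Within the groups of 4 mice of 1 sex, genotype and treatment, 18 of 160 sets of values held a mouse far from the other 3, where chance alone gives about 1 in 20, or 8. Male KO UV mouse 58M stood apart in the share of gene reads on mitochondrial members, at 7.897% with the nearest mouse at 3.182%. It also stood apart in mt-Nd1 at 14650 cpm (nearest 5635), mt-Nd2 at 5994 cpm (2236), mt-Co1 at 36060 cpm (13600), mt-Nd4 at 5942 cpm (2037), mt-Nd5 at 8184 cpm (3132) and mt-Cytb at 15770 cpm (6269).

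Male WT UV mouse 32M stood apart in the share on mitochondrial members at 3.132% (nearest 2.546%), in mt-Nd2 at 2210 cpm (1709), mt-Co1 at 13380 cpm (10790), mt-Nd4 at 2223 cpm (1680) and mt-Nd5 at 3078 cpm (2462). Female WT Control mouse 71F was high in mt-Nd6 at 13.97 cpm (8.344). Since the mitochondrial genes of a mouse share a library, these values are not separate signs.

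Among nuclear members, male WT UV mouse 38M was high in their share of gene reads at 0.3172% (nearest 0.2888%) and male KO UV mouse 72M in Ndufb6 at 46.8 cpm (37.49). Male WT Control mouse 43M was high in Ndufb9 at 40.88 cpm (34.49) and 54M in Ndufa4 at 302.6 cpm (266.4), and female WT UV mouse 57F in Ndufa1 at 22.95 cpm (20.25).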

How the results depend on the processing

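Counts of nuclear members called higher after UV kept within 1.5 times of 26 in WT and 29 in KO mice under every alternative run, and with 1 mouse left out ran from 25 to 28 and from 26 to 31. Nuclear members called lower in WT mice numbered 2 with no scaling and 0 in males alone (1 to 2 with a mouse left out, 2 without 38M). In KO mice they numbered 1 under filterByExpr, 2 in females alone and 1 without 52F, 58M and 74F (0 to 1, 1 without 72M or 74F). Mitochondrial members higher in WT mice numbered 0 in females alone, 2 when WT mice were fitted alone, 2 without 52F, 58M and 74F and 2 without the 9 muscle-rich mice (1 to 1 with a mouse left out). In KO mice they numbered 2 in males alone and 1 without the 3 mice (4 to 7, 4 without 58M or 74F), and mt-Nd4 and mt-Cytb reversed to -0.0679 and -0.0164 without the 3. Between genotypes after UV, mitochondrial members called numbered 1 under limma-trend, 1 with no filter, 0 in males, 1 in females, 0 in UV mice alone, 0 without the 3 and 0 without the 9 mice (0 to 7). Nuclear members called there numbered 2 under RLE, 0 with no scaling, 3 under DESeq2, 0 under limma-trend, 0 with no filter, 0 in males, 2 in females, 0 in UV mice alone, 0 without the 3 and 0 without the 9 mice (0 to 5, 0 in 9 of 16 fits, 5 without 59M, 2 without 77F). The interaction called 2 under DESeq2 (0 to 0 with a mouse left out). Female against male called 9 with no scaling, 5 under DESeq2, 6 in Control mice alone and 1 without the 9 mice (1 to 7, 7 without 43M, 1 without 54M, 60F, 61F, 67M or 73F). The UV change of the mitochondrial minus nuclear mean was 0.29 in KO mice and -0.17 without the 3. The cause was not tested in any of these. The leave-outs of 3 and of 9 mice were chosen after seeing the data, and the 3 were the mice with the highest shares of mitochondrial reads. Sex contrasts could not be fitted in 1 sex, nor interactions in 1 genotype or treatment. No paired analysis was possible because any pair of groups shared at most 1 mouse number. Reads lost to copies limit mt-Co1, mt-Nd4 and 5 of the 6 uncounted members whatever the depth. For mt-Atp8 no annotated copy was found, and the sequence between the copies of its neighbours was not read.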
